A study of Rattus norvegicus with 10 samples.

Results

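The Zfp genes described here are rat genes whose symbol is Zfp followed by a number. They were chosen from a table of 23051 genes as rows with such a symbol and at least 50 read counts in 5 or more of 10 libraries. Of 275 rows with a Zfp number, 232 met the rule and are called members below, and 43 did not. The 232 members carry 230 distinct symbols, since Zfp84 and Zfp420 each have 2 rows. The rule used counts over all libraries and did not use the contrast between the groups.

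Most Zfp proteins are C2H2 zinc finger proteins, in which short loops held by a zinc ion read DNA bases, and many fingers in a row give a protein its target sequence. A large share of them also carry a KRAB domain, which recruits Trim28 (KAP1) and through it the histone methyltransferase Setdb1 and HP1 proteins, and so silences transposons and some genes. Others have unrelated roles, since the name also covers RNA-binding proteins such as Zfp36 and ribosome factors such as Zfp622 and Zfp598.

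The cells were tendon-derived stem cells (TDSCs) of rat, which are progenitors found in tendon, and their RNA was sequenced in bulk. Every culture was under osteogenic induction and was taken on day 3. The control group had 5 libraries with induction and no farnesol, and the farnesol group had 5 libraries with 50 µM farnesol added, an isoprenoid alcohol. The titles describe the controls as not treated, but the library names read like a vehicle, so whether a solvent was added is not known. The labels give no strain, sex, age or animal for either group. Libraries are numbered 1 to 5 as biological replicates, and nothing says that they came from separate cultures. The p-values therefore rest on the spread among the libraries, part of which may be technical. Depth was 41.8 to 47.1 M counts per control library and 42 to 46.7 M per farnesol library.

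Among markers of the labelled cells, Tnmd, a marker of mature tendon cells, had 0 or 1 count in each library, whereas Scx, the tendon transcription factor, averaged 35.1 CPM (counts scaled to library size) in control and 21.5 CPM in farnesol. The summed level of 7 tendon markers was 3650 to 3930 CPM in control and 1730 to 1950 CPM in farnesol, and 4 of the 6 tested fell. Most of that gap was Tnc, a matrix glycoprotein, at 3180 and 1330 CPM on average, and the other 6 markers summed to 594 to 635 CPM and 516 to 582 CPM. The summed level of 7 mural and smooth muscle markers was 7150 to 8070 CPM against 4190 to 4850 CPM, again with 4 of 6 tested lower, and Rgs5 had 0 or 1 count. Without Acta2, the highest of them, the other 6 summed to 1370 to 1460 CPM and 623 to 720 CPM. The summed level of 5 fibroblast markers was 30700 to 32700 CPM against 31400 to 33500 CPM. Of the 5 tested, 1 fell, Col3a1, at 4750 and 3960 CPM on average, and 0 rose. Without Col1a1, the highest of them, the other 4 summed to 16200 to 16900 CPM and 16000 to 17000 CPM. Ptprc and Adgre1 of leukocytes, Cdh5 of endothelium, Krt18 of epithelium and Sox10 of glia were at 0 in every library. In the same lists other markers rose. S100b of the neural and glial list rose from 309 to 480 CPM on average and Tubb3 from 1.36 to 2.1 CPM, and the summed level of its 4 markers was 287 to 343 CPM against 450 to 510 CPM. Cd68 rose from 1.51 to 3.07 CPM, at summed leukocyte levels of 0.836 to 2.01 CPM and 2.71 to 3.53 CPM. Krt8 rose from 1.3 to 2.28 CPM, at summed epithelial levels of 0.839 to 2.08 CPM and 1.98 to 3.05 CPM. Tek of endothelium fell from 0.547 to 0.213 CPM, at summed levels of 0.441 to 0.817 CPM and 0.0888 to 0.793 CPM. The part of these shifts in the results on Zfp genes was not tested, and in bulk samples fewer cells of a type and less RNA per cell cannot be told apart.

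Promoters are shown for 5 members that the results below turn on: Zfp524 and Zfp628, neighbours on chromosome 1 that rose, and Zfp367, Zfp281 and Zfp120, which fell. Each is the strand of the gene from 250 bases before to 50 bases after its RefSeq start on build GRCr8. Capitals mark the GC box letters GGGCGG or their reverse complement CCGCCC, and the ETS letters CCGGAA or TTCCGG, both searched on both strands.
Zfp524: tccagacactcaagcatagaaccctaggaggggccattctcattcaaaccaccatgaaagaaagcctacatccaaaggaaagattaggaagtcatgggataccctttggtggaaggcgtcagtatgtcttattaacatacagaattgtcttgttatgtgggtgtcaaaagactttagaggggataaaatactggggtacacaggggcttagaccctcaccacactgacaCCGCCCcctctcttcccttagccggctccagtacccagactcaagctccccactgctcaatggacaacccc
Zfp628: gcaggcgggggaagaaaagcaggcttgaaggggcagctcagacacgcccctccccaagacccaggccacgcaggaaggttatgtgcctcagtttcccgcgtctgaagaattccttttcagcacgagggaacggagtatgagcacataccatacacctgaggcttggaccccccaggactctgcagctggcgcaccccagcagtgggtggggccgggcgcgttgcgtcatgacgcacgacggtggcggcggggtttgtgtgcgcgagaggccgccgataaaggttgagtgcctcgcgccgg
Zfp367: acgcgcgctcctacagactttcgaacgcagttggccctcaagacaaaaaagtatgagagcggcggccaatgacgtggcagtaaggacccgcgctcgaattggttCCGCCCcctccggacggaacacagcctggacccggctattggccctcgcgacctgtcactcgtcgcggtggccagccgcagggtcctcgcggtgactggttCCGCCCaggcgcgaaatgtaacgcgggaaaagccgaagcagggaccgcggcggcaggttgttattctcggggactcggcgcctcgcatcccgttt
Zfp281: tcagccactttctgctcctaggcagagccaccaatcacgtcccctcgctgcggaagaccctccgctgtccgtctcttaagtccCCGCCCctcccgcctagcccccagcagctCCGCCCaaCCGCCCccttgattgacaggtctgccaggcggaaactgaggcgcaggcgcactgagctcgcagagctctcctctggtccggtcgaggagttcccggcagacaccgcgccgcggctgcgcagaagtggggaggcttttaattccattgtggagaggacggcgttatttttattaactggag
Zfp120: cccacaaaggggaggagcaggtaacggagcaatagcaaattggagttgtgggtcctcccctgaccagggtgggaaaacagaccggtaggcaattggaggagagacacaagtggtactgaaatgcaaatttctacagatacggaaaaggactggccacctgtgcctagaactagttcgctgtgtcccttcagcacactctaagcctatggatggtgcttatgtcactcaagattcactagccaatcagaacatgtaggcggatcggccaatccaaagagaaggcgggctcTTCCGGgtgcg
The window of Zfp524 (chr1:77854647-77854946, minus strand) holds 1 GC box, and that of Zfp628 (chr1:77949947-77950246, minus strand) holds neither string. The window of Zfp367 (chr17:970646-970945, plus strand) holds 2 GC boxes and that of Zfp281 (chr13:50647572-50647871, plus strand) holds 3. The window of Zfp120 (chr3:159223773-159224072, plus strand) holds 1 ETS string near its end. A RefSeq promoter was matched for 194 of the 232 members. The GC box was in 45.4% of these windows, in 42.7% of 89 windows of members that fell, in 40.9% of 22 windows of members that rose, and in 62.1% of 10303 windows of tested genes. It was in 34.9% of all 27457 promoter windows in the table. The ETS letters were in 33.5% of member windows, in 37.1% of those that fell, in 31.8% of those that rose, in 27.9% of tested genes and in 15.8% of all windows. The median GC content was 56.8% for members and 60.7% for tested genes. A match is a description of letters and not of a bound site.

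Zfp members took a smaller share of the counts in every farnesol library than in any control library. Their share was 0.381, 0.359, 0.33, 0.352 and 0.364% in control 1 to 5 and 0.298, 0.305, 0.319, 0.305 and 0.273% in farnesol 1 to 5. The means were 0.357% ± 0.0186 (SD, n = 5) and 0.3% ± 0.0169 (SD, n = 5). The groups did not overlap, control 3 and farnesol 3 lay next to each other, and farnesol 5 was lowest.

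Gene by gene, 104 of 232 members (44.8%) fell with farnesol and 25 (10.8%) rose, at an edgeR adjusted p under 0.05, and 103 did not pass. Among all 12893 tested genes, 59.5% were called, 30.1% lower and 29.4% higher. All 232 members passed the filter on low counts and were tested. The median log2 fold change of the members was -0.25, with quartiles of -0.54 and 0.05, against 0.01 over all tested genes. It was below 0 for 166 members, or 71.6%, and for 48.8% of all tested genes. The members that fell did so by a median of 1.49-fold, from 1.11 to 3.61-fold, and those that rose did so by a median of 1.37-fold, from 1.22 to 1.66-fold. The groups did not overlap for 90 of 232 members, 78 lower and 12 higher in farnesol. Over all tested genes they did not overlap for 40.7%, 20.9% lower and 19.8% higher. By share, groups without overlap were about as common among members, and more of them were lower. A fall of at least 1 on the log2 scale was seen in 11 of 232 members and a rise of that size in 0. Over the 12893 tested genes these were 619 (4.8%) and 136 (1.05%). By share, falls of that size were about as common among members as among all tested genes.

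**Figure D1:**
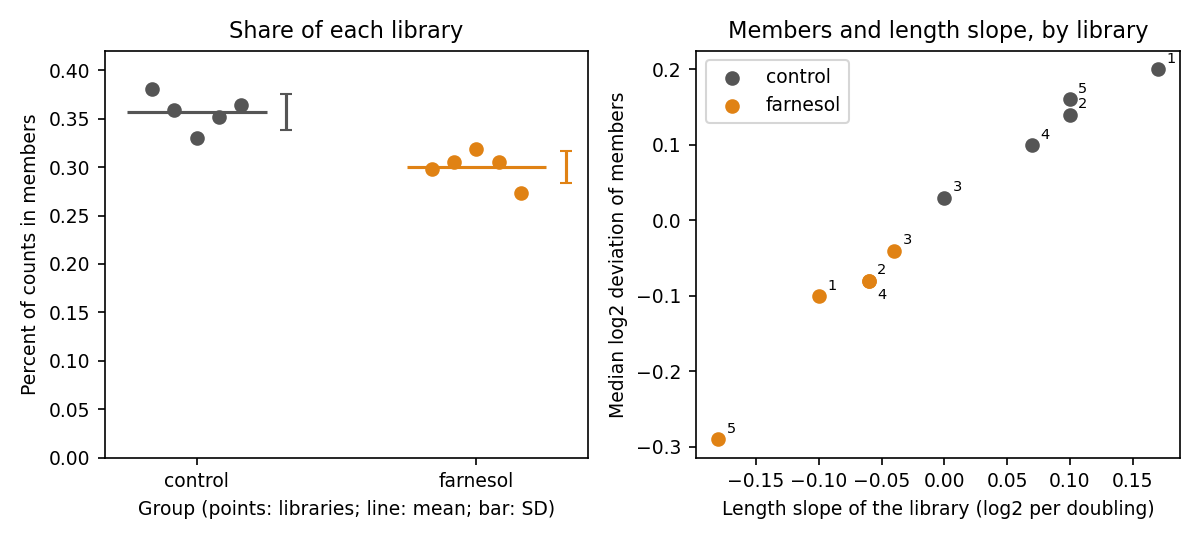
The left panel plots the percent of each library's counts that fell in the 232 members, with the group mean as a line and the SD as a bar (n = 5 per group). The right panel plots the median log2 deviation of the members from their mean over all libraries against the length slope of the library in log2 units per doubling of gene length; the numbers are replicates, controls lie at 0.03 to 0.2 and farnesol libraries at -0.29 to -0.04.

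The libraries also differed in how the level of a gene depended on its length. The length slope, the change in a gene's log2 deviation per doubling of its length, was 0.17, 0.1, -0.0027, 0.07 and 0.1 in control 1 to 5 and -0.1, -0.06, -0.04, -0.06 and -0.18 in farnesol 1 to 5. The median log2 deviation of the members was 0.2, 0.14, 0.03, 0.1 and 0.16 in control 1 to 5 and -0.1, -0.08, -0.04, -0.08 and -0.29 in farnesol 1 to 5. The libraries fell in the same order by both measures, ties aside, with control 1 at one end, farnesol 5 at the other and control 3 next to farnesol 3. Other genes of the same lengths moved the same way but less, from 0.09 in control 1 to -0.09 in farnesol 5. Library slope and treatment run together here, so the 2 cannot be told apart in these 10 libraries.

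Members were longer than most genes, with a median length of 3946 bp against 3083 bp over the tested genes, and 166 of 232 were longer than that median. The members that fell had a median length of 4513 bp and those that rose 2705 bp. Other genes, weighted to the same length classes as the members, fell in 37.3% and rose in 23.9%, with a weighted median of -0.09. In this fit, without a covariate, a larger share of members was lower and a smaller share higher than among other genes of like length. The median of the members was below that of other genes in 8 of 10 length classes. Among 31 members of 3084 to 3571 bp, 14 fell and 2 rose, with a median of -0.30 against -0.03 for the others. Of those others 32.3% fell and 25.5% rose. Among 38 members of at least 6701 bp, 23 fell and 1 rose, with a median of -0.38 against -0.31. In that class 55.4% of the others fell and 11.4% rose. Among 7 members of 1347 to 1811 bp 4 rose and 0 fell, with a median of 0.31 against 0.25 for the others of that class, of which 45.4% rose and 11% fell. Weighted by level in place of length, other genes fell in 29.2% and rose in 28.2%.

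**Figure D2:**
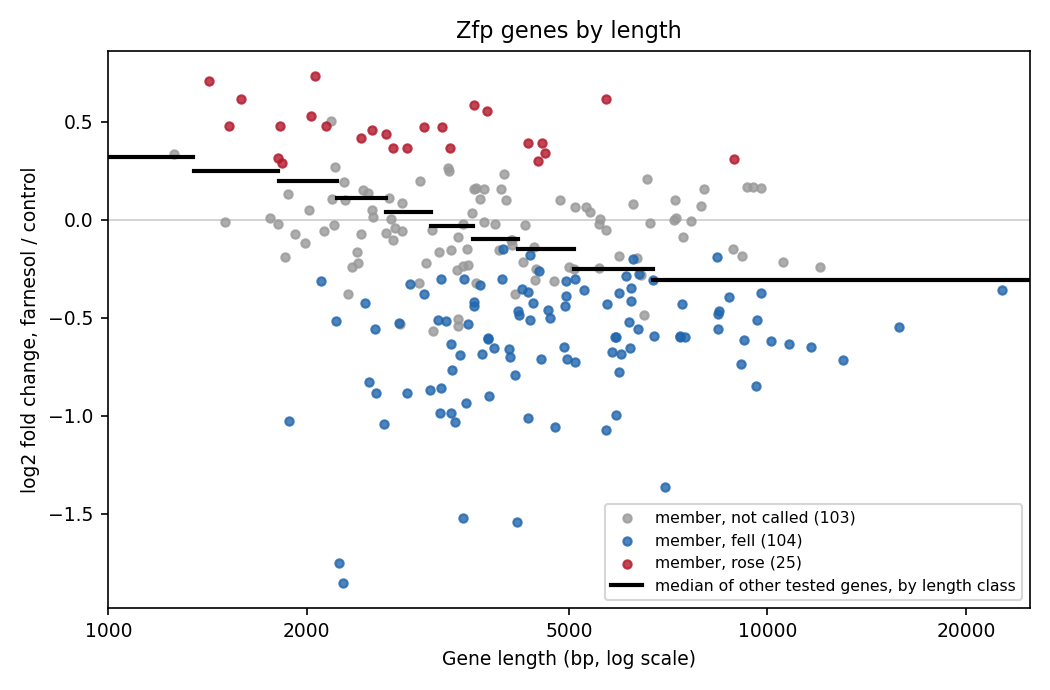
Each point is a member, placed by its length in bp on a log axis and its log2 fold change of farnesol over control; 104 members fell, 25 rose and 103 did not pass. Black bars give the median of the other tested genes in each of 10 length classes, which goes from 0.32 in the shortest to -0.31 in the longest class, and most called members of middle length lie below their bar.

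How many members were called depended on how library differences were handled. With the first axis of within-group library differences as a covariate, 24 members fell (10.3%) and 2 rose, against 11.7% and 8.9% of all tested genes (20.6% either way), and the median was -0.08. With the length slope as a covariate, 3 fell and 1 rose, against 4.55% and 3.02% of all tested genes (7.57% either way), and the median was -0.05. After removal of a smooth trend with length, 73 members fell (31.5%) and 43 rose (18.5%), against 24.5% and 32.1% of all tested genes (56.6% either way), and the median was -0.10 against 0.06 for all tested genes. Of the 104 members that fell without a covariate, 23 also fell with the axis and 71 with the trend removed. Of the 25 that rose, 0 also rose with the axis and 22 did with the trend removed. Among other genes weighted to the members' lengths, 14.4% fell with the axis, 5.12% with the length slope and 26.4% with the trend removed. The shares of members that fell were 10.3%, 1.29% and 31.5%, so by length they were the smaller ones under both covariates. Weighted by level in place of length, other genes fell in 9.32%, 3.6% and 24.8%, so with the axis the member share was then the larger. The medians of other genes weighted by length were -0.03, -0.0 and 0.05 in these fits, and those of the members were lower in each. The share that rose was smaller among members in each fit. Both covariates follow the treatment, so a covariate can take up part of a treatment effect.

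**Figure D3:**
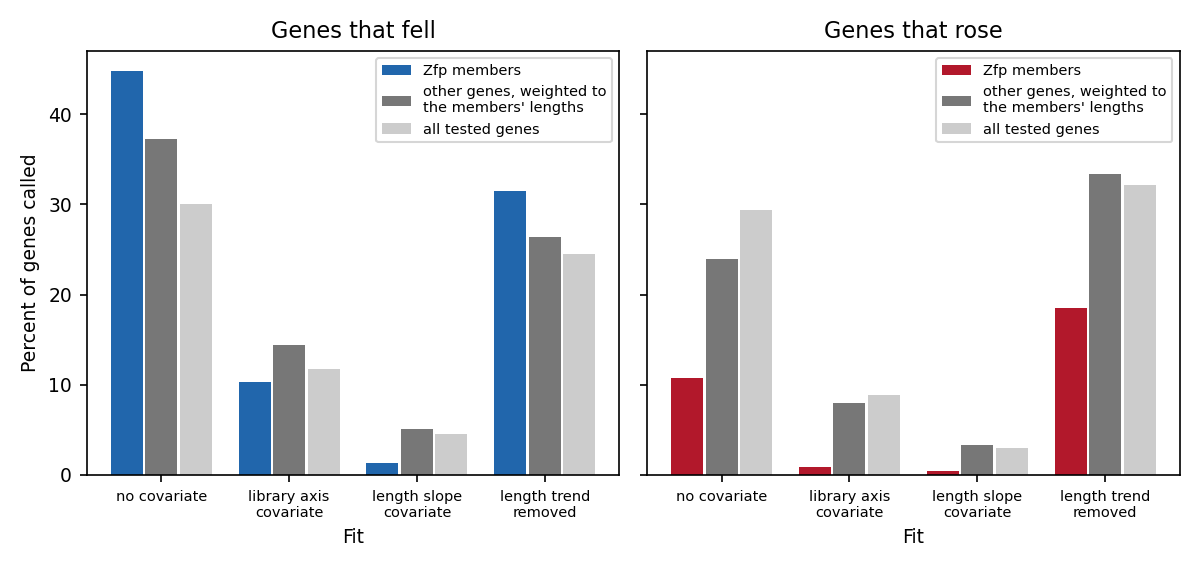
Bars give the percent of genes called lower (left) and higher (right) in farnesol at an edgeR adjusted p under 0.05, in 4 fits, for the 232 members, for other genes weighted to the members' lengths and for all tested genes. Without a covariate 44.8% of members and 37.3% of weighted other genes fell; with the library axis these shares were 10.3% and 14.4%.

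Zfp367 and Zfp160 fell in all 4 fits. Zfp367, a C2H2 protein, was at 26.3, 26.8, 19.5, 25.2 and 27.8 CPM in control 1 to 5 and at 12.4, 13, 13.4, 14.9 and 12.1 CPM in farnesol 1 to 5. Every farnesol library lay well below the lowest control, and the log2 fold change was -0.93 (SE 0.10, edgeR adjusted p 1.63e-05). It was -0.67 with the axis, -0.57 with the length slope and -0.82 with the trend removed. Zfp160, a KRAB protein, was at 29.6, 29.1, 24.1, 29.3 and 29.9 CPM in control and at 12.3, 15.0, 16.4, 16.8 and 10.1 CPM in farnesol. The groups did not overlap, and the log2 fold change was -1.01 (SE 0.13, edgeR adjusted p 6.26e-05), -0.48 with the length slope. Zfp281, which represses and activates pluripotency genes in mouse embryonic stem cells, was at 91.1, 83.2, 76.6, 83.4 and 86.6 CPM in control and at 64.5, 57.1, 66.4, 60.9 and 71.9 CPM in farnesol. Here too the groups did not overlap, and control 3 was again the lowest control. Zfp281 fell without a covariate (-0.39, SE 0.07, edgeR adjusted p 0.000518), and under the axis (-0.42) or length slope (-0.38) as covariate, but with the trend removed its value was -0.05 and did not pass.

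The 8 members with the largest falls and no overlap of the groups were Zfp120, Zfp697, Zfp507, Zfp597, Zfp106, Zfp169, Zfp217 and Zfp9, at log2 fold changes of -1.85 to -1.04. Zfp120, Zfp697, Zfp597 and Zfp169 reached 50 counts in every control, but in 9, 7, 7 and 8 libraries in all. Their farnesol counts alone would not have met the membership rule, so these falls are not independent of it. Zfp120, a KRAB protein, was at 5.10, 4.52, 3.02, 3.73 and 4.74 CPM in control and at 1.32, 1.60, 1.24, 1.22 and 0.451 CPM in farnesol. The highest farnesol library was below the lowest control, farnesol 5 stood lowest, and the fall was 3.61-fold (log2 -1.85, SE 0.26, edgeR adjusted p 0.000129). It held with the axis (-0.96) and with the trend removed (-1.92), while its -0.76 with the length slope did not pass. A row on the opposite strand overlaps Zfp120, and whether reads were counted by strand is not known here.

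Zfp697, an RNA-binding protein studied in mouse skeletal muscle, was at 4.07, 3.12, 2.02, 1.91 and 2.78 CPM in control and at 0.374, 0.962, 1.22, 1.22 and 0.338 CPM in farnesol. The fall was 3.37-fold (log2 -1.75, SE 0.35), with wide spread in both groups. Zfp106, an RNA-binding protein needed for motor nerve upkeep in mouse, had the highest counts of the 8. It was at 92.7, 61.8, 31.7, 45.7 and 59.8 CPM in control and at 20.5, 24.4, 31.0, 24.1 and 13.4 CPM in farnesol. Control 3 at 31.7 CPM and farnesol 3 at 31.0 CPM nearly met, so the absence of overlap is narrow. Its log2 fold change was -1.36 (SE 0.26, edgeR adjusted p 0.000812) and turned to 0.17, which did not pass, with the length slope as a covariate.

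Zfp217, a repressor that works with CtBP and an oncogene in human, was at 7.90, 6.64, 4.13, 6.05 and 5.58 CPM in control and at 2.60, 3.26, 3.69, 2.54 and 2.46 CPM in farnesol. Its fall was 2.08-fold. Zfp507 fell from 9.28 ± 2.98 to 3.18 ± 1.25 CPM (SD, n = 5 each), and its log2 fold change of 0.01 with the length slope did not pass. Zfp597, imprinted in human, fell from 2.26 ± 0.46 to 0.784 ± 0.394 CPM. The KRAB members Zfp169 and Zfp9 fell 2.1-fold and 2.06-fold. All 8 also fell with the trend removed, and only Zfp120 of them did so with the axis.

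**Figure D4:**
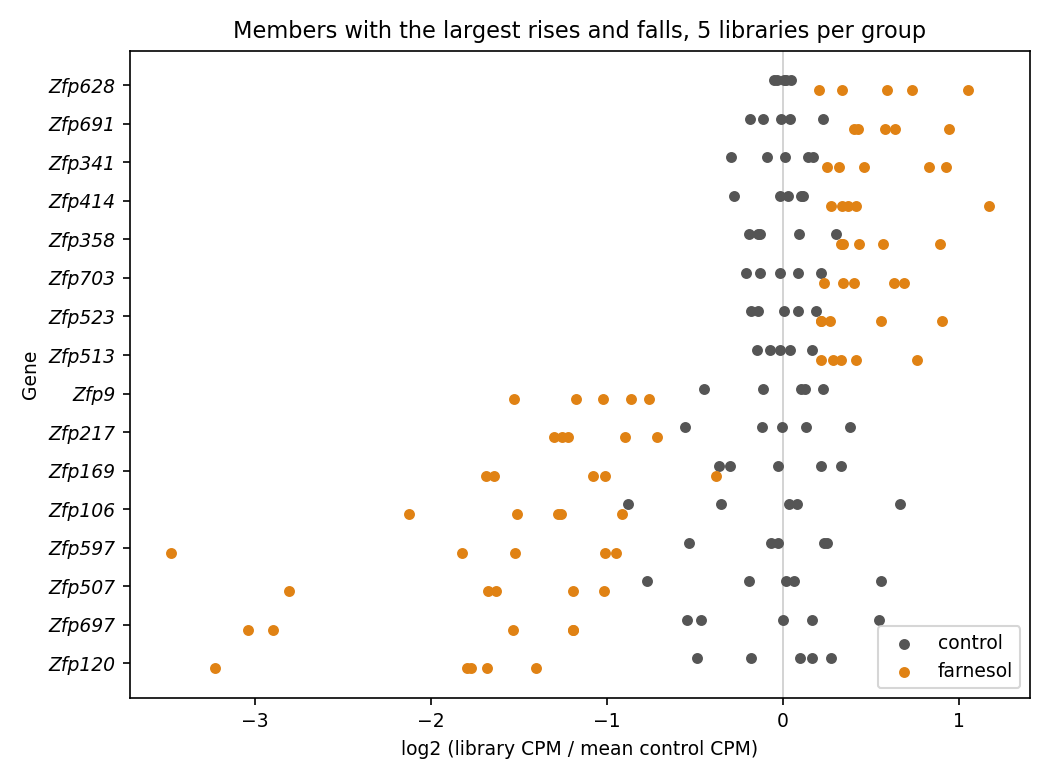
Each point is a library, placed by the log2 ratio of its CPM to the control mean, for the 8 members with the largest rises and the 8 with the largest falls among those without overlap (n = 5 per group). Farnesol points of the fallers reach down to that of Zfp597 in farnesol 5, at 0.203 CPM, and in each of the 8 risers the farnesol point farthest right is farnesol 5.

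The rises were smaller. The 8 largest without overlap were Zfp628, Zfp691, Zfp341, Zfp414, Zfp358, Zfp703, Zfp523 and Zfp513, at log2 fold changes of 0.62 to 0.42. Zfp628 was at 3.83, 3.68, 3.86, 3.73 and 3.93 CPM in control and at 6.34, 4.81, 4.40, 5.75 and 7.90 CPM in farnesol. The controls were tight, all farnesol libraries were above them, and the log2 fold change was 0.62 (SE 0.15, edgeR adjusted p 0.00321). Zfp691 was at 5.94, 6.71, 7.90, 6.94 and 6.26 CPM in control and at 10.5, 9.08, 8.93, 10.1 and 13 CPM in farnesol, a rise of 1.53-fold. Zfp341, which activates STAT3 transcription in human, rose from 3.35 ± 0.423 to 5.04 ± 1.08 CPM.

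Zfp703, a transcriptional repressor amplified in human breast cancer, was at 16.6, 20.4, 22.3, 19.0 and 17.5 CPM in control and at 29.7, 25.4, 24.3, 22.6 and 30.9 CPM in farnesol. The rise was 1.39-fold, and control 3 and farnesol 4 nearly touched. Zfp513, linked to retinal disease in human, was the highest of the 8 per length at 14.5 FPKM and rose 1.34-fold. Zfp414 rose by 0.56 on the log2 scale, and by 0.35 without farnesol 5, where it was at 21.6 CPM against 11.6 to 12.8 CPM in the other farnesol libraries. All 8 rose with the trend removed. With the axis or the length slope as a covariate none of the 8 passed, and Zfp414 and Zfp523 were below 0 with both. Zfp524, a telomere-binding protein in human, had the largest called rise of all (log2 0.73, SE 0.16, edgeR adjusted p 0.00204). Its groups overlapped, since control 3 at 5.59 CPM was above farnesol 3 at 5.52 CPM.

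Levels per length, as FPKM (fragments scaled to gene length and library size), were low for most members. The median over members was 1.95 FPKM, from 0.206 to 36.4, against 5.57 FPKM over tested genes; 53 members were under 1 FPKM and 10 over 10 FPKM. The highest 5 were Zfp622 at 36.4, Zfp36 at 25, Zfp91 at 23.1, Zfp330 at 22.6 and Zfp664 at 16 FPKM. Zfp622, a maturation factor of the large ribosomal subunit, was at 252, 241, 231, 254 and 242 CPM in control and at 195, 205, 215, 204 and 179 CPM in farnesol. The groups did not overlap and the fall was 1.22-fold (log2 -0.29, SE 0.06, edgeR adjusted p 0.000889), but with the trend removed the value was -0.01 and did not pass. Zfp36 (tristetraprolin), which binds AU-rich elements and speeds mRNA decay, was at 40.4, 42.6, 49.7, 48.5 and 46.8 CPM in control and at 41.8, 44.8, 42.6, 47.5 and 47.8 CPM in farnesol. The groups covered the same range, and the log2 fold change of -0.02 (SE 0.07) did not pass; with the trend removed it was -0.16 and passed. Zfp91, a ubiquitin ligase, was at 142, 133, 113, 128 and 140 CPM in control and at 99.2, 99.2, 107, 96.6 and 83.0 CPM in farnesol. It fell 1.35-fold, and did so with the axis and with the trend removed as well. Zfp330, a cysteine-rich nucleolar protein, did not pass (log2 -0.07, SE 0.06), and with the trend removed it was -0.19 and passed.

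Of 33 members listed for a known role, from a list of 39, 22 fell (66.7%), 3 rose (9.09%) and 8 did not pass, against 30.1% and 29.4% of all tested genes and 44.8% and 10.8% of members. With the axis 10 fell and 0 rose, with the length slope 2 and 0, and with the trend removed 16 fell and 5 rose. Over all tested genes the shares were 11.7% and 8.9% with the axis and 4.55% and 3.02% with the length slope. With the trend removed they were 24.5% and 32.1%. Among those tied to ribosomes, Zfp598, which marks collided ribosomes with ubiquitin, was at 30.1, 26.6, 32.5, 25.6 and 27.5 CPM in control and at 32.4, 31.3, 30.3, 31.7 and 43.3 CPM in farnesol. Farnesol 5 stood apart, the other 4 farnesol libraries lay within the control range, and the log2 fold change of 0.25 (SE 0.10) did not pass. With the trend removed Zfp598 was at 0.34 and passed. Zfp593, a factor of the large ribosomal subunit, averaged 6.13 ± 0.854 and 7.40 ± 0.985 CPM and did not pass. Of 11 tested genes of ribosome quality control around Zfp598, 4 rose (36.4%) and 5 fell (45.5%), against 29.4% and 30.1% of all tested genes. Rack1, the ribosomal scaffold, rose from 402 ± 30.6 to 578 ± 51.1 CPM and Ascc1 rose by 0.33 on the log2 scale, while Usp9x, Ascc3, Gigyf2 and Trip4 fell. With the length slope Rack1 was the 1 gene of the list called, against 7.57% of all tested genes.

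The next members are known from imprinting or chromatin and were grouped after their calls were known, so no count is given over them. Zfp57, which keeps DNA methylation at imprinted genes, was at 21.9, 21.6, 17.3, 21.7 and 22.3 CPM in control and at 13.9, 12, 14.7, 14.7 and 10.9 CPM in farnesol. Control 3 was low, the groups did not overlap, and the fall was 1.58-fold (log2 -0.66, SE 0.10, edgeR adjusted p 0.000258), also with the axis (-0.36) and with the trend removed (-0.49). Zfp445, another keeper of imprints, fell from 41.2 ± 4.27 to 28.7 ± 3.38 CPM. Zfp568, which silences a placental promoter of Igf2 in mouse, fell from 29.1 ± 4.64 to 19.3 ± 2.14 CPM. Zfp644, a partner of the G9a histone methyltransferase, was at 41.1, 33.8, 32, 35.4 and 37.0 CPM in control and at 24.8, 25.9, 25.2, 24.0 and 22.8 CPM in farnesol. The farnesol libraries were tight, and the fall was 1.46-fold (edgeR adjusted p 0.000102), also with the axis. Zfp462, a heterochromatin factor, fell from 27.1 ± 3.22 to 16.5 ± 2.24 CPM, and Zfp638, which silences unintegrated retroviral DNA, from 71.1 ± 7.23 to 46.9 ± 6.69 CPM. Zfp827, which brings NuRD to telomeres in human, fell from 22.1 ± 1.64 to 16.4 ± 0.432 CPM. Zfp592, a partner of Zmynd8, averaged 33 ± 2.71 and 33 ± 1.1 CPM and did not pass; with the trend removed it was 0.31 and passed.

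Among members that handle RNA or modify proteins, Zfp326, part of a complex that couples elongation and splicing, fell from 27.5 ± 3.97 to 17.7 ± 3.48 CPM, with a value of 0.07 under the length slope that did not pass. Zfp451, a SUMO ligase, fell 1.29-fold. Zfp346, which binds double-stranded RNA, was at 14.2, 10.9, 16, 12.8 and 11.9 CPM in control and at 16.5, 16.6, 15.8, 16.6 and 19.2 CPM in farnesol. Control 3 lay above farnesol 3, and the rise was 1.29-fold (log2 0.37, SE 0.10, edgeR adjusted p 0.00817). Zfp335, needed in neural progenitors, rose by 0.30 on the log2 scale, with an edgeR adjusted p of 0.0182 that became 0.0502 without control 5 and 0.0508 without farnesol 1. Zfp148 (ZBP-89), a regulator that binds GC-rich DNA, fell from 30.8 ± 1.84 to 24.9 ± 1.6 CPM. Zfp609, which binds the Integrator complex in mouse, fell by 0.47 on the log2 scale and was at 0.07 with the length slope. The other listed members that fell, Zfp292, Zfp407, Zfp608 and Zfp664, did so by 0.62, 0.65, 0.35 and 0.39. Zfp652, Zfp668 and Zfp830 were at -0.16, -0.25 and -0.02 and did not pass.

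Some members are known from mesenchymal lineages. Zfp521, which binds Ebf1 and in mouse acts in osteoblasts and against fat formation, was at 39.8, 40.3, 33.6, 36.1 and 37.7 CPM in control and at 30.9, 32.4, 32.7, 28.2 and 26.8 CPM in farnesol. The lowest control and the highest farnesol library were close, and the fall was 1.24-fold (log2 -0.31, SE 0.07, edgeR adjusted p 0.00334); it did not pass with a covariate or with the trend removed (-0.08). The next 3 members were chosen after their values were seen. Zfp467, which favours fat over bone in mouse marrow stroma, was at 7.45, 8.04, 9.41, 9.60 and 8.14 CPM in control and at 13.1, 9.27, 9.03, 11.2 and 12.4 CPM in farnesol. The groups overlapped, and the rise of 0.37 on the log2 scale (edgeR adjusted p 0.019) no longer passed without control 1 (adjusted p 0.0501) or farnesol 1 (adjusted p 0.0543). Zfp516, which promotes brown fat in mouse, fell from 25.4 ± 4.22 to 16.3 ± 3.03 CPM, with a value of 0.01 under the length slope. Zfp384 (Nmp4), which restrains bone formation in mouse, averaged 27.4 ± 1.31 and 26.9 ± 1.55 CPM and did not pass (log2 -0.02, SE 0.06); with the trend removed it was 0.16 and passed.

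Of 9 tested genes listed as partners of Zfp521 and its relative Zfp423, 1 rose (11.1%) and 4 fell (44.4%), against 29.4% and 30.1% of all tested genes. Pparg, the nuclear receptor of fat cell formation, rose from 9.23 ± 1.49 to 15.1 ± 1.58 CPM, by 0.71 on the log2 scale (SE 0.12, edgeR adjusted p 0.000361), and its value was 0.96 under the axis and 1.09 under the slope covariate, past the threshold each time. Runx2, the bone transcription factor, fell by 0.35 on the log2 scale, with groups that overlapped and values of 0.02 and 0.12 under the axis and the length slope that did not pass. Smad1, Smad4 and Smad5, which carry BMP and TGF-beta signals, fell by 0.48, 0.31 and 0.51.

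By the Pfam entries in the deposited table, 85 members had a KRAB domain, 75 had C2H2 fingers without one, 9 had another entry and 63 had none. Over all tested genes 30.1% fell and 29.4% rose. Of the 85 KRAB members 36 fell (42.4%) and 3 rose (3.53%), with a median of -0.25. The 3 were Zfp213, Zfp61 and Zfp707, at log2 fold changes of 0.44, 0.37 and 0.34, and Zfp707 no longer passed without control 1 (edgeR adjusted p 0.0515). Of the 75 C2H2 members without KRAB 32 fell (42.7%) and 13 rose (17.3%), with a median of -0.19. Of the 63 without an entry 35 fell (55.6%) and 7 rose (11.1%). KRAB members were lower per length, with a median of 1.52 FPKM against 2.77 FPKM, and shorter, with a median of 3694 bp against 4138 bp. With the axis 6 KRAB members fell (7.06%) and 1 rose, against 13 (17.3%) and 0 of the C2H2 members without KRAB. In that fit 11.7% of all tested genes fell and 8.9% rose. With the trend removed 26 KRAB members fell (30.6%) and 11 rose (12.9%), against 22 (29.3%) and 18 (24%) of the C2H2 members without KRAB. The shares over all tested genes were then 24.5% and 32.1%. The difference between these classes was not tested. Of 12 members with a SCAN domain 2 fell (16.7%) and 1 rose (8.33%).

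Of 21 tested genes of the KRAB co-repressor complex and its effectors, 11 fell (52.4%) and 3 rose (14.3%), with a median of -0.21. The shares over all tested genes were 30.1% and 29.4%. Their median length was 4173 bp for the list and 3083 bp over all tested genes. Trim28, the protein that KRAB domains bind, rose from 115 ± 5.06 to 136 ± 9 CPM without overlap (log2 0.25, SE 0.06, edgeR adjusted p 0.00213), and its 0.10 with the axis did not pass. The HP1 proteins differed: Cbx5 rose by 0.16 on the log2 scale, Cbx1 fell by 0.59 (edgeR adjusted p 0.00104, no overlap) and Cbx3 at -0.10 did not pass. Setdb1, the methyltransferase of the complex, did not pass (log2 -0.06, SE 0.09). With the trend removed Cbx3 was at -0.24 and Setdb1 at 0.23, and both passed. Chd3 of the NuRD complex fell from 206 ± 19.8 to 158 ± 3.19 CPM, also with the axis (-0.28). The 3 members of the HUSH silencing complex fell, Mphosph8 by 0.34, Tasor by 0.61 and Pphln1 by 0.52, and Mphosph8 was at 0.01 with the trend removed. With the axis 3 of the 21 fell and 0 rose, against 11.7% and 8.9% of all tested genes. With the length slope 0 of the 21 passed, against 7.57% of all tested genes. With the trend removed 8 fell and 5 rose, against 24.5% and 32.1%. Of 15 mRNA decay genes around Zfp36, 9 fell and 0 rose, with a median of -0.28, against 30.1% and 29.4% of all tested genes. With the axis 2 fell, with the length slope 0, and with the trend removed 6 fell and 3 rose. Cnot6, a deadenylase, fell most without a covariate (log2 -1.10, SE 0.16).

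In the rat genome many Zfp genes stand side by side. With neighbours joined when the next member lay within 500 kb, 18 clusters of at least 3 members held 95 members, and 9 of these clusters were on chromosome 1, which held 72 members. In clusters 35 of 95 members fell (36.8%) and 9 rose, and outside them 69 of 137 fell (50.4%) and 16 rose. All tested genes fell in 30.1% and rose in 29.4%, or in 24.5% and 32.1% with the trend removed. Other genes weighted to the lengths of all members fell in 37.3% and rose in 23.9%, near the share that fell in clusters. Over all tested genes the shares were 11.7% and 8.9% with the axis and 4.55% and 3.02% with the length slope. All these shares are the background for the single clusters below as well. Coordinates are those of the deposited table, and the submitters' processing notes name build rn7. Reads of close paralogs within a cluster, and of the paired rows of Zfp84 and Zfp420, can be split between copies by the counting, so values of single paralogs are uncertain.

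The largest cluster (chr1:84987377-85436275) held 13 rows from Zfp84 to Zfp146, 9 of them with a KRAB domain. In it 7 fell and 0 rose, with a median of -0.50, which was -0.29 with the trend removed, and -0.13 and -0.06 under the axis and slope covariates. Zfp74 fell most (log2 -1.03, SE 0.21) with overlap of the groups, and Zfp790 fell from 3.82 ± 0.591 to 1.93 ± 0.554 CPM. Zfp260 was the highest there and was at 102, 98.1, 85.3, 91.5 and 99.7 CPM in control and at 62.3, 66.3, 71.6, 63.0 and 51.9 CPM in farnesol. It fell 1.51-fold (edgeR adjusted p 0.000113), also with the axis and the trend removed. The 2 rows of Zfp420 differed, at -0.77 and -0.13, and the second did not pass. Zfp14 at 0.21 and Zfp27 at 0.03 were the members above 0, and did not pass, but with the trend removed Zfp14 was at 0.50 and passed.

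In the cluster from Zfp160 to Zfp948 (chr1:60683592-61395282) 5 of 6 members fell and the median was -0.50. In the cluster from Zfp799 to Zfp81 (chr7:11898149-12693574) all 7 members were below 0 and 5 fell, with a median of -0.53. Zfp81 fell by 0.83 and Zfp799 by 0.71 on the log2 scale. Zfp81 reached 50 counts in every control but in 8 libraries in all, so its fall is not independent of the membership rule. The medians of these clusters were -0.46 and -0.43 with the trend removed and -0.24 and -0.14 under the axis. Under the length slope they were -0.13 and -0.09, where 1 and 0 members still fell. In the cluster from Zfp712 to Zfp455 (chr2:84432276-84733538) all 5 were below 0 and 2 fell, with a median of -0.57 that was 0.08 with the length slope.

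The cluster from Zfp580 to Zfp628 (chr1:68787118-68921243) went the other way, with 3 of 4 members higher and a median of 0.55. Its members are C2H2 genes without KRAB. Zfp579 was at 3.83, 5.47, 6.34, 4.50 and 4.46 CPM in control and at 6.39, 6.06, 7.16, 6.08 and 8.48 CPM in farnesol, with overlap through control 3, and rose by 0.48 on the log2 scale. Zfp580 at 0.34 did not pass. Without a covariate Zfp524, Zfp579 and Zfp628 rose, with the trend removed they rose too, and with the axis or the length slope 0 of the 4 passed. In the cluster from Zfp398 to Zfp775 (chr4:76849681-77575296) 8 of 9 members were above 0 with a median of 0.15; 1, Zfp467, rose, and 6 rose with the trend removed. Zfp862 in that cluster, chosen after its values were seen, was at 0.07 and did not pass, but rose in the other 3 fits by 0.29, 0.36 and 0.39.

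**Figure D5:**
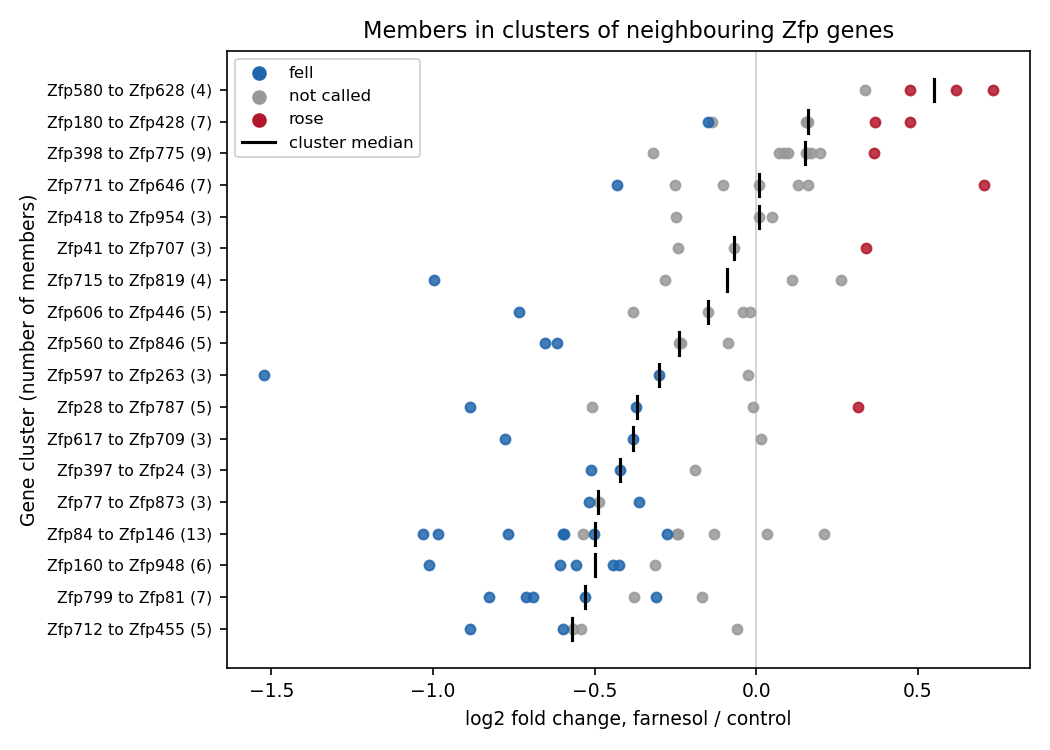
Each row is a cluster of at least 3 neighbouring members, named by its first and last member with the number of members in brackets, and each point is a member's log2 fold change of farnesol over control. Black ticks mark cluster medians, from 0.55 in the cluster from Zfp580 to Zfp628 down to -0.57 in that from Zfp712 to Zfp455.

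Other zinc finger families are set beside the 44.8% of members and 30.1% of all tested genes that fell and the 10.8% and 29.4% that rose; no difference between them was tested. Of 36 Zbtb genes 16 fell (44.4%) and 3 rose, with a median of -0.22. Of 20 Klf and Sp genes 12 fell (60%) and 2 rose, with a median of -0.36. Of 18 Zc3h genes 8 fell (44.4%) and 3 rose, and of 15 Zscan and Zkscan genes 5 fell (33.3%) and 2 rose. Of 8 genes named Znf with a number 0 fell and 2 rose (25%), with a median of 0.09.

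Members near the count threshold were low throughout. The 3 nearest inside, by their 5th highest count, were Zfp667 at 53, Zfp964 at 58 and Zfp438 at 60. The 3 nearest outside were the second row of Zfp873 at 41, Zfp296 at 40 and Zfp619 at 40. Of these, Zfp619 had 40 to 98 counts in control and 7 to 39 in farnesol, at a log2 fold change of -1.87. The second row of Zfp873 was at -0.13 and Zfp296 at 0.2. Of the 232 members 215 reached 50 counts in all 10 libraries, and of these 94 fell and 25 rose, with a median of -0.22. Over all tested genes 30.1% fell and 29.4% rose. Another 13 reached 50 counts in 5 controls but in fewer farnesol libraries. The reverse held for 1, with 5 farnesol libraries but fewer controls. Of the 43 rows that were not members 12 were at 0 in every library and 17 were tested. Of these 17, 4 fell and 0 rose, against 30.1% and 29.4% of all tested genes. For a row at 0 the upper limit is 3 counts, which is 0.064 to 0.072 CPM by library, with counting error alone included.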

How the data were processed

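Trizol was used for total RNA, and the library kit was NEBNext Ultra II RNA, per the labels' protocols. Tools named in the submitters' processing notes, without their roles, are HTSeq 0.9.1, HISAT2 2.0.5, StringTie and DESeq, and the build is rn7. The authors deposited read counts per gene and library beside FPKM values, per the file headers. Gene length is the count divided by the FPKM and scaled by the column total. Of 23052 rows 1 repeated row was removed.

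The members and gene lists were chosen with earlier results of these data known. The test was edgeR 4.0.16 under R 4.3.3, with filterByExpr, TMM, a robust glmQLFit, glmQLFTest and no term other than group, 2-sided and with Benjamini-Hochberg adjustment over 12893 genes at 0.05. CPM uses TMM-scaled library sizes, and plain library totals for cell type markers. The common biological coefficient of variation was 0.125. Other genes were compared in 10 length classes, weighted to the members' classes, with no set test.

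Named members are the 8 largest rises and falls at an adjusted p under 0.05 without overlap of the groups, a list of 39 genes with known roles, the 5 highest by FPKM, the 3 nearest the threshold on each side, cluster members and up to 6 genes per partner list; others are marked in the text. Of the 39 listed genes those that are no members are not described. Partner genes beyond the 6, such as Trim28, were chosen after their values were seen, and 1 result on these lists is not reported here. Protein sequences were not used here, so domain classes come from the Pfam column, which had an entry for 169 of 232 members. Another row overlaps 54 members, 39 of them on the opposite strand. Whether the counting used strand is, in the sources used here, not given.

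Alternatives were other size factors, filters, thresholds and membership rules, DESeq2 1.42.0, limma 3.58.1 (voom with quality weights, and trend on log2 FPKM with pseudocounts of 0.1 and 1), the replicate block, the library axis (first principal component of log2 CPM within groups, 36.8% of that variance), the length slope, a smooth length trend removed (5 degrees of freedom) and each library left out. On simulated counts for farnesol against control over 12893 genes, 3 of 50 genes seeded at 1.2-fold and 28 of 50 at 1.5-fold were recovered. At 2-fold 43 of 50 and at 4-fold 47 of 50 were recovered, and 3.97% of calls were false. Each gene was simulated independently, with no library axis or length slope shared across genes. These rates therefore do not measure recovery or false calls in the real libraries. Replicate libraries differed by a chi-square per gene of 3.93 to 112, above sampling noise, so none was taken as a repeat.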

Additional observations from a re-analysis of the deposited data

Results flagged for a closer look

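Of 106 groups of 5 libraries checked for a library far from the rest, 5 held 1. The check flags 1 in 20 groups by chance. Since the groups share the same 10 libraries and are not independent, the count cannot be judged against that rate. In 4 of the 5 flagged groups the library was farnesol 5, which also had the lowest share of counts in members. Zfp414 was at 21.6 CPM in farnesol 5 against 11.6 to 12.8 CPM in the other farnesol libraries. Zfp346 was at 19.2 CPM there against 15.8 to 16.6 CPM, and Zfp598 at 43.3 CPM against 30.3 to 32.4 CPM. Zfp862 was at 16.2 CPM there against 19.4 to 19.9 CPM. Zfp57 was at 17.3 CPM in control 3 against 21.6 to 22.3 CPM in the other controls.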

How the results depend on the processing

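Without a covariate 7671 genes and 129 members were called, at a member median of -0.25. With the library axis these were 2656, 26 and -0.08, and with the length slope 976, 4 and -0.05. With the trend removed the median was -0.10 and the split of member calls 43 higher and 73 lower against 25 and 104, and on log2(FPKM + 1) the median was -0.12; the causes were not tested. With 1 library left out, 6880 to 7904 genes and 116 to 139 members were called, at medians of -0.29 to -0.20. Other size factors, filters, tests, the threshold of 0.01 and membership rules (211 to 241 members) kept the counts within 1.5 times, except that at 0.01 members that rose went from 25 to 13.

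Of 169 named results, 10 lost their call without 1 library: Zfp335, Zfp467, Zfp410, Zfp180, Zfp263, Zfp28, Zfp428, Zfp563, Zfp707 and Zfp787. Signs changed, with a call before or after, only under the covariates and the trend. With the length slope the log2 values were Zfp341 (-0.04), Zfp414 (-0.21), Zfp358 (-0.07), Zfp523 (-0.16), Zfp513 (-0.04), Zfp507 (0.01), Zfp106 (0.17), Zfp326 (0.07), Zfp335 (-0.10), Zfp609 (0.07), Zfp467 (-0.08), Zfp516 (0.01), Zfp180 (0.04), Zfp263 (0.07), Zfp266 (0.07), Zfp28 (0.03), Zfp347 (0.02), Zfp428 (-0.26), Zfp579 (-0.07), Zfp61 (-0.03), Zfp688 (-0.18), Zfp712 (0.08), Zfp787 (-0.19), Zfp952 (0.01), Smad5 (0.06), Runx2 (0.12) and Gigyf2 (0.00). With the axis they were Zfp414 (-0.04), Zfp523 (-0.03), Zfp335 (-0.01), Zfp428 (-0.06), Zfp787 (-0.08) and Runx2 (0.02). With the trend removed they were Zfp592 (0.31), Zfp384 (0.16), Zfp410 (0.01), Zfp180 (0.01), Zfp84 (0.01) and Mphosph8 (0.01), of which Zfp592 and Zfp384 passed (edgeR adjusted p 0.0023 and 0.0282).

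Replicate numbers did not pair the libraries: same-numbered deviations correlated at -0.401 to 0.052, and no control matched its own number best. The replicate block gave 6409 genes and 110 members (18 higher, 92 lower) and ended 10 named calls. Protein features could not be run. Treatment and library slope cannot be told apart with 5 libraries per group.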
